A study of Mus musculus with 2 samples.

Results

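Cathepsins are proteases and related hydrolases that work mainly in the acid interior of lysosomes, and 9 of their genes are described here across the cells of a healing mouse rib: *Ctsa*, *Ctsb*, *Ctsc*, *Ctsd*, *Ctsh*, *Ctsk*, *Ctsl*, *Ctss* and *Ctsz*. They were chosen by name from the 31054 features of the count tables, and all 9 are present. Callus, the repair tissue that fills the gap after a piece of rib is removed, was taken at 4 days post injury (dpi). The mice had been given tamoxifen before the injury. The study used young adult mice of both sexes across its experiments, and the sex of the animals in each library is not given. The control library came from *Sox9*:CreER;*R26*:tdTomato;*Smo* flox/+ mice and the *Smo* cKO library from *Sox9*:CreER;*R26*:tdTomato;*Smo* flox/flox mice. Both genotypes carry the *Sox9*:CreER driver, the *R26*:tdTomato reporter and at least 1 floxed *Smo* allele, so the control is itself heterozygous for the deletion in Cre-active cells. The driver acts in *Sox9*-expressing cells and their descendants, so blood-derived cells are not those in which it is meant to act. Calluses of 3 animals were pooled for each library, dissociated and sequenced as single cells, and the 2 libraries are the whole data set.

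Most cathepsins are made as inactive precursors, are sent to lysosomes by the mannose 6-phosphate route, and become active there as the pH falls. Cathepsins B, C, H, K, L, S and Z are cysteine proteases, cathepsin D is an aspartic protease, and cathepsin A is a serine carboxypeptidase that also protects other lysosomal enzymes. In a bone callus the best known of them is cathepsin K, which osteoclasts secrete to degrade collagen, while cathepsins S and L are known for trimming the invariant chain of MHC class II molecules in antigen-presenting cells. Cystatins and stefins are natural inhibitors of the cysteine cathepsins.

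The chemical difference is written in the codon of the catalytic residue. Each sequence below is 27 bases of coding sequence on the sense strand, from GENCODE vM21 transcripts, with the catalytic codon in capitals, and the coordinates are GRCm38 (the mm10 build that the authors used). They are shown because the residue divides the 9 genes into their enzyme classes, and because the *Ctsk*, *Ctsl* and *Ctss* sites, which are closely similar, belong to genes with very different cell patterns in the callus.
*Ctsk*, cysteine codon in exon 5 at chr3:95502597-95502599: cagtgtggttccTGTtgggctttcagc
*Ctss*, cysteine codon in exon 5 at chr3:95545348-95545350: tcttgtggtgccTGCtgggctttcagt
*Ctsl*, cysteine codon in exon 5 at chr13:64367075-64367077, minus strand: cagtgcgggtctTGTtgggcgtttagc
*Ctsb*, cysteine codon in exon 4 at chr14:63135717-63135719: tcctgcggctctTGTtgggcatttggg
*Ctsh*, cysteine codon in exon 6 at chr9:90064522-90064524: gcctgtggcagcTGCtggactttctct
*Ctsc*, cysteine codon in exon 6 at chr7:88308027-88308029: tcttgtggaagcTGCtactcatttgcc
*Ctsz*, cysteine codon in exon 2 at chr2:174438196-174438198, minus strand: tactgtggttccTGCtgggcccacggc
*Ctsd*, aspartic acid codon in exon 3 at chr7:142383479-142383481, minus strand: acagtcgtctttGATactggctcctct
*Ctsa*, serine codon in exon 6 at chr2:164835243-164835245: ctgacaggagagAGCtatgctggcatc

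*Ctsk* (chr3:95499256-95509362) and *Ctss* (chr3:95526786-95556403) are neighbors on the plus strand of chromosome 3, with 17423 bases and no other coding gene between them. The 250 bases before each start in the RefSeq promoter table (GRCm38.p6) are printed since the genes lie side by side and differ in the cells that hold their UMIs. Capitals mark GAGGAA on either strand, the core letters of sites that the myeloid factor PU.1 can bind.
*Ctsk*, chr3:95498960-95499209, plus strand: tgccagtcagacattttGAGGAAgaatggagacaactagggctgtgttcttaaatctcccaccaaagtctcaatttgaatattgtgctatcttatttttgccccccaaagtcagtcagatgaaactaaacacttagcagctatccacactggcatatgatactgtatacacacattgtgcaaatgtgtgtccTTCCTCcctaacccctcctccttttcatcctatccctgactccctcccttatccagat
*Ctss*, chr3:95526536-95526785, plus strand: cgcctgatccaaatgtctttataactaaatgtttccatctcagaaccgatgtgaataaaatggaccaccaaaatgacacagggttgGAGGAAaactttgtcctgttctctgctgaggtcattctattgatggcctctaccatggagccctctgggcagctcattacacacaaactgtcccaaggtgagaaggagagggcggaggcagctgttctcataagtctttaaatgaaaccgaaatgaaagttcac

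The promoter table held 8 entries for 7 of the 9 genes. GAGGAA was found in the 300-base windows of *Ctsk*, *Ctss* and *Ctsc*, and in 28.3% of the 32851 promoters of the table. CACGTG, the letters of the E-box that MITF and TFE factors of lysosomal genes bind, was found in 1 of the 2 *Ctsa* windows and in those of *Ctsd* and *Ctsl*, and in 7.15% of all promoters. The *Ctsd* site nearer to the start, 98 bases before it, lies at chr7:142387908-142387937 on the minus strand with the motif in capitals.
*Ctsd*: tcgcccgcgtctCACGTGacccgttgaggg
TGANTCA, the AP-1 site, was in none of the 8 windows and in 7.81% of all promoters. *Ctsa*, *Ctsb*, *Ctsc*, *Ctsl* and *Ctsz* overlap a gene on the other strand (*Pltp* and *Neurl2* in the case of *Ctsa*), *Ctsd*, *Ctsl* and *Ctss* overlap a gene model on their own strand, and *Ctsh* and *Ctsk* overlap none. How the counting treated reads in these overlaps was not examined.

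The deposited tables count unique molecular identifiers (UMIs), each of which stands for 1 captured RNA molecule, in 10747 control and 10512 *Smo* cKO barcodes, and sum to 105367110 and 112700220 UMIs. Cells with at least 200 genes and under 10% of UMIs on mitochondrial genes were kept, 10057 with a median of 8367 UMIs and 9507 with a median of 9092. *Smo*, the deleted gene, had 1538 and 964 UMIs in connective cells, or 18.9 and 12.3 CPM (UMIs of a gene scaled to a class total of 1e6), a log2 difference of −0.63 (95% interval −0.74 to −0.51). The libraries shared 613 cell barcodes. Of these, 608 were kept in the control, where their median depth was 822.5 UMIs, and 604 in the *Smo* cKO, where it was 30890.5 UMIs. The depths went both ways, with 339 of the 613 at least 10 times deeper in the *Smo* cKO and 154 at least 10 times deeper in the control. They held 7.39% of the kept control UMIs and 13% of the kept *Smo* cKO UMIs, and 354 of the 599 kept in both were placed in the same class. Connective cells were 442 and 419 of those kept, and no chance level was set beside this agreement. Without these barcodes, 193 of 198 levels of the 9 genes by class and library stayed inside their counting intervals, and the 5 others, all in *Smo* cKO connective cells, moved by no more than 0.04 on the log2 scale.

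Cells were placed in classes by lists of marker genes that hold none of the 9 cathepsins. A class is a range of a marker score, not a proven cell type. Of the classes, 11 had at least 20 cells in both libraries. Connective cells (collagen genes, *Dcn*, *Pdgfra*) numbered 6261 control and 5120 *Smo* cKO cells, cells with macrophage or monocyte markers (*Csf1r*, *Adgre1*, *Lyz2*) 1388 and 1888, dendritic cells 448 and 243, and osteoclasts (*Acp5*, *Dcstamp*, *Ocstamp*) 356 and 197. The markers were higher inside their class than outside in every class, with 1 exception, the calcitonin receptor *Calcr*, which had no UMI in *Smo* cKO osteoclasts. The same markers placed the cells, so this is no independent check of the classes. Muscle, neutrophil, endothelial, mural, plasmacytoid dendritic, T cell and myeloid progenitor classes had between 26 and 371 cells. Cells with markers of more than 1 lineage, which include doublets, were 5.92% and 7.10% of the cells and were left out of all classes, as were ungated cells at 4.97% and 5.53%. The mixed cells had median depths of 12949 and 15948 UMIs and *Ctsk* at 337 and 338 CPM. All blood-cell classes counted as 1 lineage, as did connective and mural cells. Cells with markers of more than 1 blood class therefore stayed in the class with the highest score. Dendritic cells had median macrophage scores of 0.28 and 0.24, beside a cut of 0.25. Neutrophils had median macrophage scores of 0.252 and 0.253, beside the same cut. Plasmacytoid dendritic cells had median dendritic scores of 0.37 and 0.38, so the blood classes are not free of each other's markers. Just above their cut, within 0.05 of it, lay 40 and 17 osteoclasts, 44 and 28 macrophages, and 51 and 89 connective cells. Each genotype is 1 library, so differences between genotypes have no test, and all intervals cover counting error only.

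**Figure D1:**
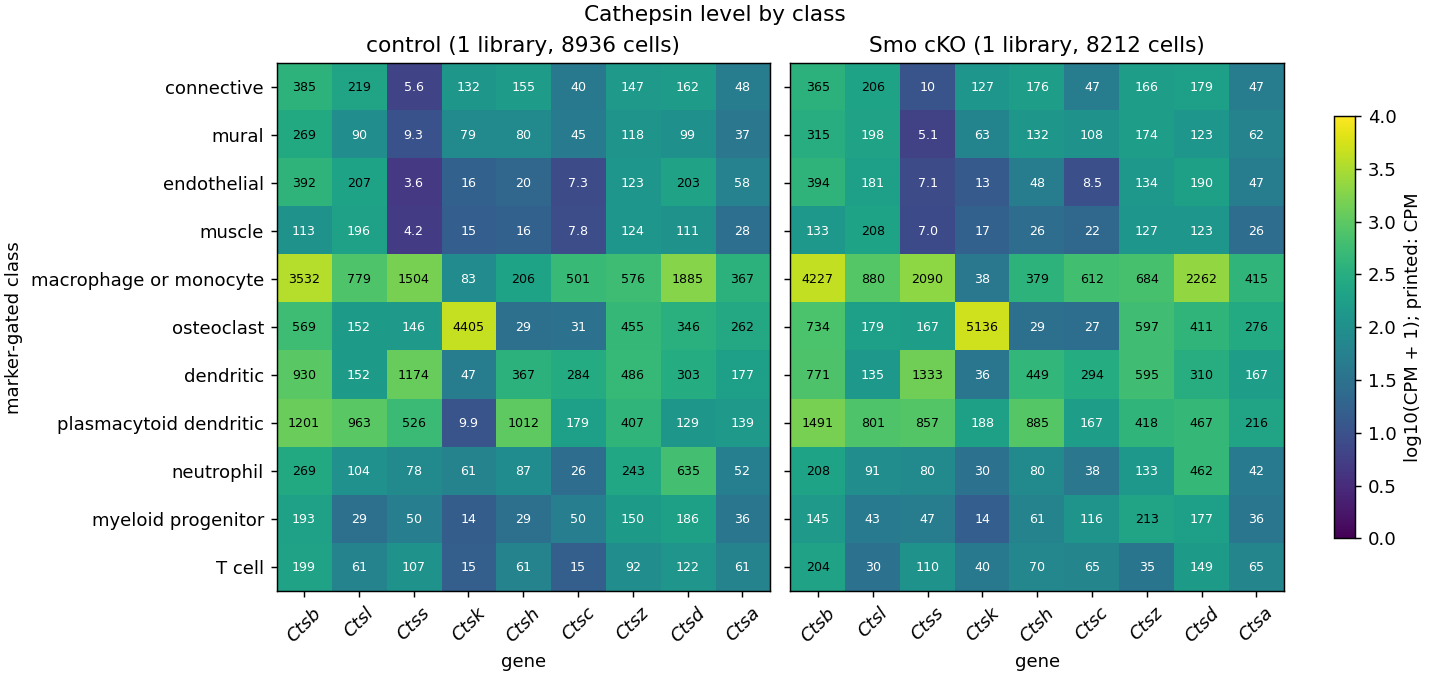
Level of the 9 cathepsin genes in 11 marker-gated classes, with control on the left and *Smo* cKO on the right. Color is log10(CPM + 1) and the printed number is CPM, from UMIs summed over the cells of a class. *Ctsk* stands out in osteoclasts at 4405 and 5136 CPM, and *Ctsb*, *Ctsd* and *Ctss* stand out in the macrophage or monocyte class.

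Both libraries showed the same broad patterns. *Ctsk* was an osteoclast gene with a lower level in connective cells. *Ctsa*, *Ctsb*, *Ctsc*, *Ctsd*, *Ctss* and *Ctsz* were highest in the macrophage or monocyte class. *Ctsh* was highest in plasmacytoid dendritic cells, and *Ctsl* was high in both these and macrophages. These orders describe the classes of 1 library per genotype, and the counting intervals say which neighbors in each order could be told apart.

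*Ctsk*, the collagenase of bone resorption, reached 4405 CPM in control osteoclasts (95% Poisson interval 4334 to 4477, 14760 UMIs) and 5136 CPM in *Smo* cKO osteoclasts (5047 to 5227, 12544 UMIs). Connective cells followed at 132 (129 to 134) and 127 (125 to 130) CPM, apart from a value of 188 CPM in *Smo* cKO plasmacytoid dendritic cells that came almost wholly from 1 cell. The level in osteoclasts was thus above that in connective cells by 5.06 (interval 5.03 to 5.10) and 5.33 (5.29 to 5.37) on the log2 scale. Although osteoclasts were only 3.54% and 2.07% of the cells and held 3.22% and 2.20% of all UMIs, 50.4% and 45.6% of the *Ctsk* UMIs came from them. Connective cells, which held 77.9% and 70.8% of all UMIs, gave 36.6% and 36.4%.

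Single osteoclasts differed widely in *Ctsk*. In control osteoclasts 10% of the cells were at or under 307 CPM, the median cell was at 2929 CPM, and 10% were at or above 8791 CPM. In *Smo* cKO osteoclasts these values were 177, 3210 and 9869 CPM. When macrophage and osteoclast cells were ordered together by the osteoclast marker score, *Ctsk* rose at each step. It was at 40.8 and 27.3 CPM at a score under 0.05, at 159 and 112 CPM between 0.15 and 0.25, at 1394 and 1187 CPM between 0.25 and 0.5, and at 9196 and 9713 CPM at 0.75 or more. Across the same steps above the gate, *Ctss*, *Ctsc* and *Ctsh* went different ways. *Ctss* fell by step, from 256 and 265 CPM in the range from 0.25 to 0.5 to 65.3 and 94.5 CPM at the top. *Ctsc*, the dipeptidyl peptidase that activates granule proteases, fell from 67.8 and 62.4 CPM to 8.96 and 12.1 CPM. *Ctsh* was between 26 and 34.8 CPM at all steps above the gate. *Ctsb*, *Ctsd*, *Ctsa* and *Ctsz* had their higher levels within the gate at the top of the score, with *Ctsz* at 813 and 1024 CPM there against 322 and 329 CPM just above the gate. The score is built from 10 osteoclast markers, cells of the 2 classes are sorted by their stronger score, and median depth also rose along it, from 2167 and 2853 UMIs to 11491 and 15187.5 UMIs.

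**Figure D2:**
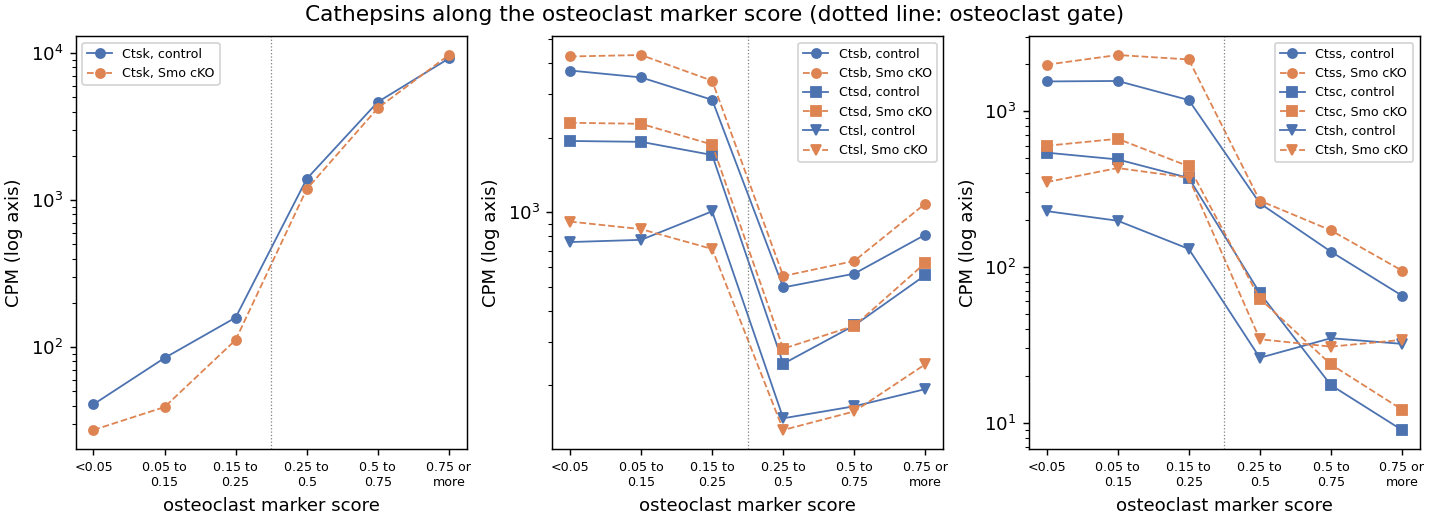
CPM (log axis) of 7 cathepsins in macrophage- and osteoclast-gated cells binned by osteoclast marker score, for control (solid) and *Smo* cKO (dashed). *Ctsk* climbs from 40.8 and 27.3 CPM to 9196 and 9713 CPM, while *Ctsc* and *Ctss* are lowest at the highest scores. The step at the dotted line is where the class of the cells changes.

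In connective cells *Ctsk* was a modest but broad signal. At least 1 UMI was found in 69.3% of control and 73.1% of *Smo* cKO connective cells, at median depths of 10983 and 13742 UMIs. After each cell was thinned to 1000 UMIs the shares were 13.6% (95% Clopper-Pearson interval 12.7% to 14.5%) and 14.2% (13.2% to 15.2%). They were 1.78% and 1.36% in thinned muscle cells, which were set beside them for comparison and had median depths of 8408.5 and 9061 UMIs. *Ctsk* had 1.14 UMIs for each UMI of *Acp5*, another osteoclast gene, in osteoclasts of both libraries, and 5.10 and 5.49 in connective cells. The part of free osteoclast RNA in the connective *Ctsk* was not tested further. Among connective cells, those with tendon markers (*Tnmd*, *Scx*) had more *Ctsk* than those without a subset, by 0.51 (interval 0.41 to 0.61) and 0.73 (0.65 to 0.81) on the log2 scale, at 180 and 196 CPM. Chondrogenic cells (*Acan*, *Col2a1*) were at 141 and 134 CPM. The few osteoblast-gated cells, 17 and 28, were at 174 and 190 CPM. Endothelial and muscle cells had between 12.7 and 16.7 CPM. The signal was not particular to the connective class, since mural cells were at 78.5 and 63.3 CPM. Their thinned shares were 14.3% and 8.70%, from 49 and 46 cells. Mural cells also had median connective scores of 0.46 and 0.52.

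*Ctss*, the neighbor of *Ctsk*, had a different order of classes. Its level was 1504 (interval 1467 to 1543) and 2090 (2056 to 2125) CPM in the macrophage or monocyte class, 1174 (1114 to 1237) and 1333 (1255 to 1415) CPM in dendritic cells, and 526 (394 to 688) and 857 (712 to 1023) CPM in plasmacytoid dendritic cells. None of these intervals overlapped within a library. Osteoclasts came next at 146 (133 to 159) and 167 (151 to 184) CPM, where the interval met that of T cells, at 107 and 110 CPM. Connective cells had 5.61 and 10.0 CPM. Thinned to 1000 UMIs, 0.572% and 1.57% of connective cells had a *Ctss* UMI, against 0.592% and 0.542% of muscle cells. The muscle shares rest on only 1 of 169 and 2 of 369 cells. In the control the 2 shares were alike. In the *Smo* cKO library the connective interval (1.24% to 1.96%) overlapped that of muscle (0.0657% to 1.94%). *Ctss* had 0.17 UMIs for each UMI of the myeloid gene *Lyz2* in connective cells of both libraries and 0.20 and 0.21 in macrophages, and the part of free RNA in the connective *Ctss* was not tested further.

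At equal depth, most osteoclasts held *Ctsk* and most macrophages *Ctss*. Of 352 and 197 thinned osteoclasts, 237 and 128 had *Ctsk* without *Ctss*, 18 and 14 had *Ctss* without *Ctsk*, and 34 and 26 had both. Of 1303 and 1811 thinned macrophages or monocytes, 859 and 1350 had *Ctss* without *Ctsk* and 36 and 28 had both.

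**Figure D3:**
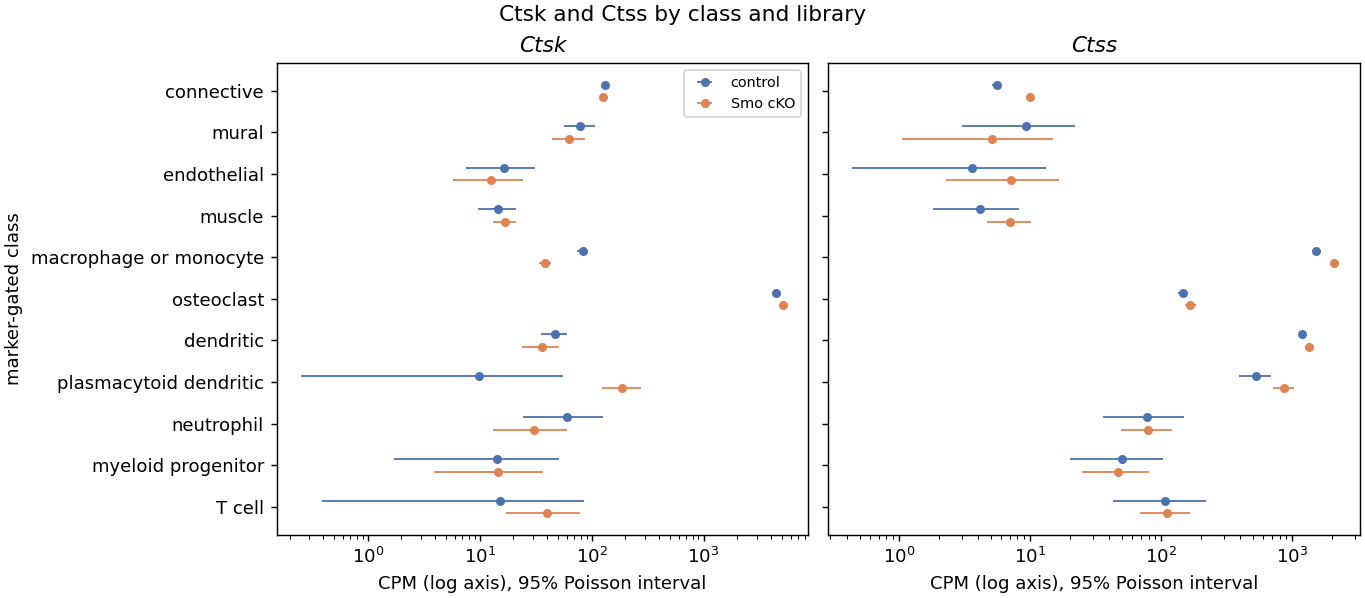
CPM of *Ctsk* (left) and *Ctss* (right) on a log axis in 11 classes, for control (blue) and *Smo* cKO (orange), with 95% Poisson intervals. *Ctsk* peaks in osteoclasts and *Ctss* in the macrophage or monocyte class, where they are at 5136 and 2090 CPM in the *Smo* cKO library. The *Ctsk* value of *Smo* cKO plasmacytoid dendritic cells rests on 1 cell.

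*Ctsb* and *Ctsd*, general lysosomal endopeptidases, were macrophage genes with a wide base. *Ctsb* was at 3532 and 4227 CPM in the macrophage or monocyte class and at 385 and 365 CPM in connective cells, a log2 difference of 3.20 (interval 3.17 to 3.23) and 3.53 (3.51 to 3.56). Plasmacytoid dendritic cells were second at 1201 and 1491 CPM. Muscle was lowest in both libraries at 113 and 133 CPM. *Ctsb* was still detected in 92.1% and 93.2% of connective cells, and because these are so many they gave 55.9% and 41.2% of all *Ctsb* UMIs, while macrophages gave 25.3% and 41.2%. *Ctsd* was at 1885 and 2262 CPM in macrophages. Neutrophils had 635 and 462 CPM of *Ctsd*, on only 73 and 122 UMIs. They were above osteoclasts in the control library, at 346 CPM, and had an interval that overlapped that of osteoclasts, at 411 CPM, in the *Smo* cKO library.

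*Ctsa*, *Ctsc* and *Ctsz* were also led by macrophages but differed in osteoclasts. The carboxypeptidase gene *Ctsz* was at 576 and 684 CPM in macrophages and at 455 and 597 CPM in osteoclasts, a log2 difference between these classes of only −0.34 (interval −0.44 to −0.25) and −0.20 (−0.28 to −0.11). *Ctsa* was at 367 and 415 CPM in macrophages and at 262 and 276 CPM in osteoclasts. *Ctsc* was at 501 and 612 CPM in macrophages but only at 31.3 and 26.6 CPM in osteoclasts, below the 39.7 and 46.8 CPM of connective cells. Osteoclasts thus shared high *Ctsz* and *Ctsa* with macrophages and had low *Ctsc*. High *Ctsz* was not particular to these classes, since dendritic cells were at 486 and 595 CPM and plasmacytoid dendritic cells at 407 and 418 CPM. *Ctsa* was at 177 and 167 CPM in dendritic cells and at 139 and 216 CPM in plasmacytoid dendritic cells. In plasmacytoid dendritic cells *Ctsc* was at 179 and 167 CPM, and in dendritic cells at 284 and 294 CPM.

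*Ctsh* and *Ctsl* were both high in plasmacytoid dendritic cells, the type I interferon producers, of which 43 and 36 cells were gated. *Ctsh*, an aminopeptidase, was at 1012 (interval 826 to 1229) and 885 (738 to 1053) CPM in them, with 102 and 127 UMIs, and at 367 and 449 CPM in dendritic cells. It was detected in 86.0% and 88.9% of plasmacytoid dendritic cells. *Ctsl* was at 963 (781 to 1175) and 801 (662 to 962) CPM in these cells and at 779 (752 to 807) and 880 (858 to 902) CPM in macrophages, so these classes overlapped in both libraries. In dendritic cells *Ctsl* was only 152 and 135 CPM, which is 2.66 (2.29 to 3.02) and 2.56 (2.18 to 2.96) lower on the log2 scale than in plasmacytoid dendritic cells. *Ctsl* was at 219 and 206 CPM in connective cells, 196 and 208 CPM in muscle and 207 and 181 CPM in endothelium. Mural cells were at 89.7 CPM (66.2 to 119, 48 UMIs) in the control and 198 CPM (164 to 238, 116 UMIs) in the *Smo* cKO library. In *Smo* cKO plasmacytoid dendritic cells *Ctsk*, at 188 CPM against 9.93 CPM in the control, had 24 of its 27 UMIs in 1 cell. Without this cell it was 22.7 CPM. *Ctsd* in this class was at 129 CPM (interval 68.7 to 221, 13 UMIs) in the control and at 467 CPM (362 to 593, 67 UMIs) in the *Smo* cKO library. The osteoclast gene *Acp5* had 1 and 19 UMIs in the class. Neither *Ctsd* nor *Acp5* was counted without the cell that held most of the *Ctsk*.

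*Ctsh* was also found in connective cells, at 155 and 176 CPM, below the plasmacytoid dendritic, dendritic and macrophage classes. It was low in osteoclasts at 29.2 and 28.7 CPM. Connective cells gave 81.7% and 72.9% of all *Ctsh* UMIs, close to the 77.9% and 70.8% of all UMIs that they held. Within the connective class, *Ctsh* was lower in chondrogenic cells than in cells without a subset, with log2 differences of −0.52 (interval −0.60 to −0.43) and −0.77 (−0.86 to −0.67), and lower in tenocyte-gated cells, at −0.27 (−0.39 to −0.16) and −0.45 (−0.54 to −0.36). *Ctsl* was lower in chondrogenic cells too, at −0.25 (−0.32 to −0.18) and −0.47 (−0.55 to −0.39). *Ctsk* and *Ctsb* were slightly higher in them, with *Ctsk* at 0.16 (0.08 to 0.24) and 0.18 (0.09 to 0.27).

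The macrophage or monocyte class contained cells with *C1q* and *Mrc1*, which mark resident-type macrophages (713 and 891 cells), cells with *Arg1*, *Spp1* and *Gpnmb*, which mark wound macrophages (545 and 860 cells), and monocytes with *Ly6c2* and *Ccr2* (37 and 61 cells). A further 93 and 76 cells met none of these gates. The first 2 of these gates had alike depth, with medians of 2415 and 2516 UMIs in the control and 3171 and 3164 UMIs in the *Smo* cKO library. *Ctsl* was higher in the *Arg1* *Spp1* gate, at 1187 and 1299 CPM against 522 and 533 CPM in the *C1q* *Mrc1* gate, by 1.19 (interval 1.08 to 1.30) and 1.29 (1.20 to 1.37) on the log2 scale. *Ctsk* was higher as well, at 125 and 52.0 CPM against 30.1 and 19.2 CPM. *Ctsd* was higher by 0.38 (0.31 to 0.45) and 0.29 (0.24 to 0.33).

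*Ctsc* and *Ctsh* went the other way. *Ctsc* was at 371 and 468 CPM in the *Arg1* *Spp1* gate and 659 and 794 CPM in the *C1q* *Mrc1* gate, a log2 difference of −0.83 (interval −0.97 to −0.69) and −0.76 (−0.86 to −0.67). *Ctsh* was at 156 and 285 CPM against 274 and 508 CPM. *Ctsb*, *Ctsa* and *Ctsz* differed between these gates by no more than 0.12 on the log2 scale in either library. *Ctss* did not differ in the control library, at −0.04 (interval −0.11 to 0.04), and was lower in the *Arg1* *Spp1* gate of the *Smo* cKO library, at −0.31 (−0.36 to −0.26).

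Monocytes had far less of the endopeptidases *Ctsb* and *Ctsd*. *Ctsb* was at 676 and 566 CPM in them, below the *C1q* *Mrc1* gate with log2 differences of −2.56 (interval −2.95 to −2.20) and −2.97 (−3.24 to −2.70), and *Ctsd* was at 211 and 251 CPM, a log2 difference of −3.11 in both libraries. *Ctss* was at 1186 and 1141 CPM in monocytes, also below the *C1q* *Mrc1* gate but by less, at −0.45 (−0.75 to −0.18) and −1.09 (−1.28 to −0.90). In the control library these monocyte values rest on 90206 UMIs from 37 cells. Low levels were not particular to monocytes. The cells of the class that met no gate had *Ctsb* at 716 and 840 CPM and *Ctsd* at 373 and 326 CPM. Their *Ctsk* was at 189 and 80.7 CPM.

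**Figure D4:**
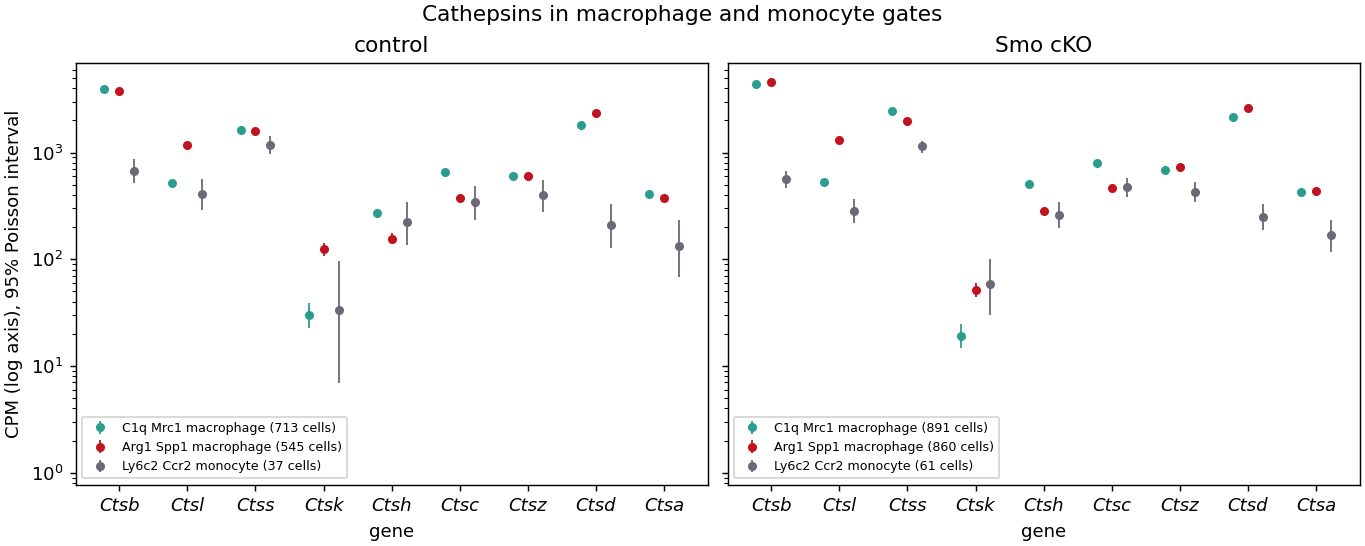
CPM (log axis, 95% Poisson intervals) of the 9 cathepsins in *C1q* *Mrc1* macrophages, *Arg1* *Spp1* macrophages and *Ly6c2* *Ccr2* monocytes, in control (left) and *Smo* cKO (right). In both libraries *Ctsl* and *Ctsk* are higher, and *Ctsc* and *Ctsh* lower, in the *Arg1* *Spp1* gate, and *Ctsb* and *Ctsd* are lowest in monocytes.

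The libraries were compared next, since the study asks what loss of *Smo* in *Sox9*-lineage cells does to the callus. A gene was counted as different where its CPM differed at least 2-fold and it reached 50 CPM in at least 1 library. In connective cells, 0 of 6 cathepsins that reached 50 CPM differed so, against 0.896% of all 2567 genes. In osteoclasts 0 of 7 differed, against 0.728% of 2336 genes, and in dendritic cells 0 of 8, against 3.1% of 2420 genes. In the macrophage or monocyte class 1 of 9 differed, *Ctsk*, against 2.05% of 2489 genes. The cathepsins that did not reach 50 CPM were *Ctsa*, *Ctsc* and *Ctss* in connective cells, *Ctsc* and *Ctsh* in osteoclasts and *Ctsk* in dendritic cells.

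In macrophages 8 of the 9 genes were higher in the *Smo* cKO library, all by less than 2-fold. The gating markers of the class were higher too, with summed levels of 11231 and 14502 CPM and *Lyz2* at 7648 and 10101 CPM, and so were *C1qa*, at 1738 and 2304 CPM, and the median macrophage score, at 0.58 and 0.65. *Col1a1*, a connective marker, was at 488 and 407 CPM in the same cells. The part of these shifts in the cathepsin ratios was not tested. The log2 ratios had a median of 0.26 over the 9 genes, beside −0.05 over all genes tested. *Ctsh* had the highest, with 206 (interval 192 to 220) and 379 (364 to 394) CPM in control and *Smo* cKO, which is higher by 0.88 (0.77 to 1.00). It was 0.89 (0.75 to 1.04) in the *C1q* *Mrc1* gate and 0.87 (0.67 to 1.07) in the *Arg1* *Spp1* gate, so the higher level was seen in both. In monocytes it was 0.24 (−0.53 to 1.05). Higher *Ctsh* was not particular to macrophages, since it was 0.71 (0.16 to 1.29) in mural cells. Endothelial and muscle cells, under 50 CPM in both libraries, were at 1.27 (0.25 to 2.40) and 0.68 (0.09 to 1.31). Osteoclasts, neutrophils and plasmacytoid dendritic cells were at −0.03, −0.13 and −0.19, with intervals that included 0. Thinned to 1000 UMIs, *Ctsh* was detected in 18.2% (16.1% to 20.4%) of control and 28.2% (26.2% to 30.4%) of *Smo* cKO macrophages. *Ctss* followed at 0.47 (0.43 to 0.52). *Ctsa*, *Ctsb*, *Ctsc*, *Ctsd*, *Ctsl* and *Ctsz* lay between 0.18 and 0.29. Over all genes tested in macrophages, the median size of the ratio in either direction was 0.18.

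*Ctsk* was the one cathepsin that was lower in *Smo* cKO macrophages. From 334 control and 261 *Smo* cKO UMIs, its level was 83.3 (interval 74.6 to 92.8) and 38.5 (34 to 43.4) CPM, which gave a log2 ratio of −1.11 (−1.35 to −0.88). Its signal was carried by few cells, as the 5% of cells with the most *Ctsk* held 76.0% and 73.2% of its UMIs. Among the macrophages with a UMI of at least 1 of the osteoclast markers *Acp5*, *Atp6v0d2*, *Dcstamp*, *Ocstamp*, *Oscar* or *Mmp9*, which were 29.0% and 30.8% of the class, *Ctsk* was at 153 and 54.4 CPM, a log2 difference of −1.49 (−1.80 to −1.19). Among the others it was at 40.3 and 28.1 CPM, a log2 difference of −0.52 (−0.92 to −0.12). The ratio was −1.26 (−1.56 to −0.96) in the *Arg1* *Spp1* gate and −0.65 (−1.20 to −0.09) in the *C1q* *Mrc1* gate. It was −1.23 (−2.00 to −0.51) in the cells that met no gate. In monocytes it was 0.80 (−1.09 to 3.27), on 3 and 12 UMIs. The ratio of the whole class was under 2-fold when cells with over 2000 genes were left out (−0.79), when each cell was thinned to 1000 UMIs (−0.62) and when each cell had equal weight (−0.70), and −1.01 without the shared barcodes.

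**Figure D5:**
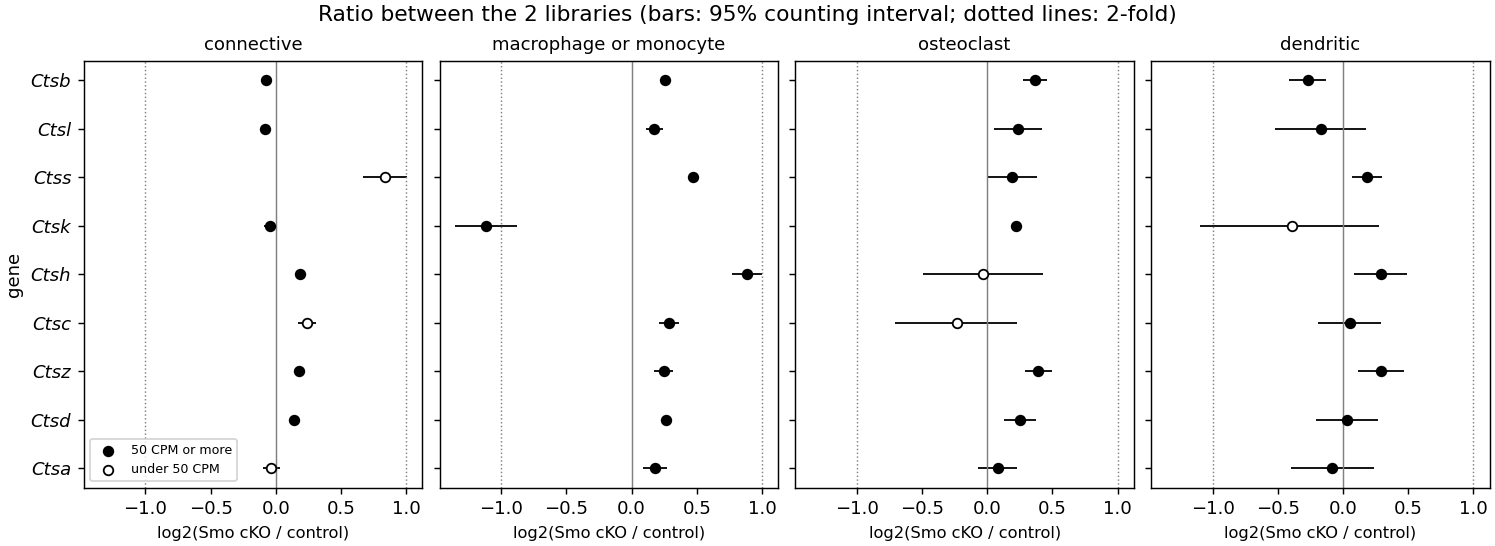
Log2 ratio of *Smo* cKO over control CPM for the 9 cathepsins in 4 classes, with 95% counting intervals. Filled points reached 50 CPM in at least 1 library, and dotted lines mark 2-fold. Only *Ctsk* in the macrophage or monocyte class, at −1.11, lies beyond a dotted line.

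In osteoclasts the 7 cathepsins that reached 50 CPM were all slightly higher in the *Smo* cKO library, with a median log2 ratio of 0.24, beside 0.06 over all genes tested. The median size of the ratio over all genes, in either direction, was 0.15. The summed osteoclast gating markers were at 7675 and 8552 CPM, and their part in these ratios was not tested. *Ctsk* was higher by 0.22 (interval 0.19 to 0.26), *Ctsz* by 0.39 (0.29 to 0.50) and *Ctsb* by 0.37 (0.27 to 0.46), while the intervals of *Ctsa* and *Ctss* included 0. The directions of *Ctsa*, *Ctsl* and *Ctss* turned in at least 1 of the other ways of counting, where their lowest values were −0.12, −0.14 and −0.03. *Ctsb* kept its direction but fell as low as 0.05, and its main value was the highest of all ways. *Ctsk* stayed between 0.16 and 0.36. In connective cells the values of the 6 tested cathepsins lay between −0.08 and 0.18, and *Ctsk* there, at −0.05 (−0.09 to −0.01), was 0.53 when cells with over 2000 genes were left out. Of those under 50 CPM there, *Ctsa* was at −0.04 (−0.10 to 0.03) and *Ctsc* at 0.24 (0.17 to 0.31). *Ctss* was at 0.84 (0.67 to 1.01), on 455 and 786 UMIs. In dendritic cells *Ctsb* was lower at −0.27 (−0.41 to −0.13) and *Ctsh* and *Ctsz* were higher, both at 0.29.

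The other genes of the pathway were taken from lists of inhibitors, delivery factors, lysosomal enzymes and membrane proteins, the vacuolar proton pump and known substrates. None of the genes of these lists differed 2-fold between the libraries at 50 CPM in connective cells, macrophages, osteoclasts or dendritic cells. Of all genes tested, 0.896%, 2.05%, 0.728% and 3.1% differed so in these classes. With shares this low, a count of 0 in short lists is no result about these genes. The numbers tested in macrophages were 3 of 12 inhibitors, 6 of 11 maturation and delivery genes, 13 of 20 other hydrolases, 5 of 10 membrane proteins and regulators, 14 of 16 pump subunits and 3 of 9 substrates. Their median log2 ratios there were 0.05, −0.03, 0.29, 0.09, −0.14 and −0.26, beside −0.05 over all genes tested. Of the 14 other cathepsins none reached 50 CPM in these 4 classes.

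The inhibitors had their own cell pattern. *Cst3*, cystatin C, was highest in dendritic cells at 4463 and 5291 CPM, and was at 1420 and 2106 CPM in macrophages, 1391 and 1578 CPM in osteoclasts and 466 and 563 CPM in connective cells. *Cstb*, stefin B, was highest in osteoclasts at 1957 and 2311 CPM and at 1785 and 1695 CPM in macrophages. *Serpinb6a*, a serpin and neither a cystatin nor a stefin, was highest in connective cells at 445 and 425 CPM. *Lgmn*, the asparaginyl endopeptidase that helps mature several cathepsins, was at 1496 and 1445 CPM in macrophages and only 105 and 115 CPM in osteoclasts. *Psap*, prosaposin, was at 3101 and 3061 CPM in macrophages and 2978 and 3317 CPM in plasmacytoid dendritic cells. The pump subunits *Atp6v0b*, *Atp6v0e* and *Atp6v1g1* were highest in osteoclasts, with *Atp6v1g1* at 1625 and 2004 CPM there and 811 and 734 CPM in macrophages.

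Of the substrates, *Col1a1* and *Col1a2*, the type I collagen chains that cathepsin K cleaves and that are among the connective markers, were at 9521 and 8288 CPM and at 10661 and 9371 CPM in connective cells. *Cd74*, the invariant chain processed by cathepsins S and L, is one of the dendritic markers and was at 15547 and 18109 CPM in these cells. *Ctsg*, a granule serine protease that bears the name cathepsin but belongs to another family, was at 2470 and 1734 CPM in myeloid progenitors and at no more than 3.79 CPM in the other 10 classes. *Ctso* and *Ctsf* were at no more than 62.7 and 22.2 CPM in any of the 11 classes.

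The genes whose levels were most like those of each cathepsin were found by Pearson's r of log2(CPM + 10) over 22 points, the 11 classes in 2 libraries, among 5633 genes that are no gating markers. The points share libraries and differ in depth, so r is a description. *Ctsk* was most like *Bdh2* (0.94), *Src* (0.93), *Cyp2s1* (0.93), *Dock5* (0.90) and *Scin* (0.89). *Ctsb* was most like *Grn* (0.95), *Psap* (0.94), *Ctsa* (0.91), *Rab7b* (0.89) and *Pltp* (0.88). *Ctss* was most like *Fam105a* (0.96), *Gm2a*, *Fcgr2b*, *Cfp* and *Malt1*. *Ctsd* was most like *Syngr1* (0.91), *Plin2*, *Msr1*, *Adam8* and *Ftl1*, and *Ctsa* most like *Lat2* (0.93), *Rgs10*, *Npc2*, *Cd68* and *Atp13a2*. Those nearest to *Ctsc* were *Rab7b* (0.88), *Aif1*, *Spic*, *Ly86* and *Rassf4*, to *Ctsh* *Fgd2* (0.87), *Pld4*, *Ly86*, *Ifnar2* and *Clec10a*, to *Ctsl* *Blvrb* (0.87), *Grn*, *Nptn*, *Npc1* and *Tmem86a*, and to *Ctsz* *Rbm47* (0.89), *Atp6ap1*, *Cyfip1*, *Wdr91* and *Sirpa*. Among the 9 cathepsins themselves *Ctsk* stood apart, since its highest r with another was 0.52, with *Ctsa*, while *Ctsa* and *Ctsb* were at 0.91. *Ctsk* and *Ctss* were at 0.15.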

How the data were processed

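Single-cell RNA-seq of 4 dpi rib callus gave 1 control and 1 *Smo* cKO library, each pooled from 3 animals. The authors aligned reads to mm10 with Cell Ranger 3.0.2 (submitters' processing notes) and deposited raw UMI counts per gene and called barcode, without normalization. The members and gene lists were chosen with earlier results of these data known.

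All cells with at least 200 genes and under 10% of UMIs on the 13 mt- genes were used. The study's upper limit of 2000 genes was an alternative, since 58.0% and 59.4% of the kept cells exceed it. For each class, a cell's score was the mean ln(1 + UMIs per 10000) of the markers, divided by the mean of the 50 highest cells. The class with the highest score was taken, given at least 3 detected markers and a score of 0.25 (0.40 for connective). Cells that also reached 0.15 (0.40 for connective) for another lineage were set aside, and no doublet caller was run. These cuts were set after seeing the data. 1 listed marker and 1 listed pump gene are not in the feature table.

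UMIs were summed by class and library and given as CPM with exact Poisson 95% intervals, ratios with the exact interval for 2 Poisson counts, and shares with Clopper-Pearson intervals, also after thinning to 1000 UMIs. No p-value was computed. All 9 members are named, and of other lists the genes at least 2-fold different, otherwise the 3 with the highest CPM over all cells. The 2-fold rule was tested on simulated counts with 200 genes changed 4-fold, of which all 200 tested in connective cells and all 197 tested in osteoclasts were recovered, with 0 of 2225 and 0 of 1987 unchanged genes called. A 4-fold change lies well beyond the rule, so this says nothing of changes near 2-fold. Macrophages and dendritic cells were not simulated. With 1 library per genotype, the result gives no rate of false calls between animals. Python 3.11.15, numpy 2.4.6, scipy 1.17.1 and pandas 2.3.3 were used.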

Additional observations from a re-analysis of the deposited data

Results flagged for a closer look

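Summed over whole classes, the *Ctsk* ratio between the libraries had opposite directions in macrophages and osteoclasts. The log2 ratio of *Smo* cKO over control was −1.11 in the macrophage or monocyte class and 0.22 in osteoclasts, a difference of −1.34. By osteoclast marker score, *Ctsk* was lower in the *Smo* cKO library from 0.25 to 0.5 and from 0.5 to 0.75. At 0.75 or more it was higher, at 9196 CPM in 66 control and 9713 CPM in 50 *Smo* cKO cells. Each class had 1 library per genotype, so the difference was not tested. The macrophage value was under 2-fold in 3 of the ways of counting that were tried.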

How the results depend on the processing

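No paired analysis was possible because each genotype is 1 library. Of 288 values of the 36 cathepsin ratios in 4 classes under other settings, 267 had the direction of the main value, and the ratios that turned were at most 0.39 in size on the log2 scale. The count of cathepsins that differed 2-fold in macrophages went from 1 to 0 with cells over 2000 genes left out, with thinning to 1000 UMIs and with equal weight per cell. It stayed 0 in connective cells, osteoclasts and dendritic cells. The remaining classes were not in this count, and no share of all genes that differed 2-fold in them is set beside their ratios. The ratios that follow for these classes are therefore no result about cathepsins as a set. In mural cells the log2 ratios of *Ctsc* and *Ctsl* were 1.26 (interval 0.56 to 2.01) and 1.14 (0.65 to 1.66). *Ctsd* and *Ctsk* in plasmacytoid dendritic cells and *Ctsc* in progenitors were also at least 2-fold higher. That *Ctsk* value came almost wholly from 1 cell, and *Ctsd* was not counted without it. The progenitor *Ctsc* ratio was 1.21 (0.004 to 2.63), on 7 and 32 UMIs. *Ctsh* in progenitors and *Ctsc* in T cells were at least 2-fold higher too, but with intervals that included 0. They were at 1.10 (−0.51 to 3.13), on 4 and 17 UMIs, and 2.08 (−0.65 to 7.49), on 1 and 13 UMIs. *Ctsk* in neutrophils and *Ctsl* and *Ctsz* in T cells were at least 2-fold lower, with intervals that included 0. Of all genes, 23, 51, 17 and 75 differed 2-fold in connective cells, macrophages, osteoclasts and dendritic cells. With cells over 2000 genes left out the numbers were 85 for connective cells and 271 for osteoclasts, and with thinned cells 232 for osteoclasts and 228 for dendritic cells. At 20 CPM they were 50, 77, 58 and 266, and with no filter on level 1899, 1473, 1477 and 2099. Leaving out the barcodes that both libraries hold, an alternative chosen after seeing the data, gave 23, 51, 23 and 80 genes and the same counts of cathepsins. Small totals limit the plasmacytoid dendritic, neutrophil, monocyte, T cell and progenitor classes, which had between 65371 and 276805 UMIs in a library. The cause of these changes was not tested.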

Other observations

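Neutrophils, which had the second highest *Ctsd* of the control classes, also held the stefin A genes of the inhibitor list, named here after their values were seen. *Stfa1* was at 148 and 136 CPM, *Stfa2* at 78.2 and 117 CPM, *Stfa2l1* at 330 and 167 CPM and *Stfa3* at 78.2 and 98.5 CPM in control and *Smo* cKO neutrophils. These genes are near-identical copies, and how the counting assigned reads that fit more than 1 of them was not examined. In connective cells, macrophages, osteoclasts and dendritic cells all 4 were at no more than 1.75 CPM. *Cst7*, cystatin F, an inhibitor of cathepsin C, was highest in myeloid progenitors at 200 and 141 CPM, the class that also held *Ctsg*.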
